A study of Mus musculus with 4 samples.

Results

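The genes described here carry oxygen and high-energy phosphate through the heart muscle cell: myoglobin (Mb), the creatine transporter Slc6a8, the creatine kinases Ckm, Ckmt2 and Ckb, the adenylate kinase Ak1, the ADP/ATP carrier Slc25a4, the phosphate carrier Slc25a3 and the porin Vdac1. They were chosen by gene symbol, as 9 of the 24906 genes with a symbol in the files. Their reads were counted on 17 RefSeq transcripts. The question asked of them was how their levels compare between hearts of 2 mouse models with a changed cMyBP-C, the cardiac myosin binding protein of the thick filament, and hearts of the matched controls.

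Myoglobin is a globin that stores oxygen and speeds its diffusion in heart and red skeletal muscle. ATP made by the mitochondrial ATP synthase leaves the matrix through the ADP/ATP carrier while the phosphate carrier brings phosphate in. The mitochondrial creatine kinase passes the phosphate from ATP to creatine in the space between the membranes, phosphocreatine crosses the porin to the cytosol, and the muscle-type creatine kinase at the myofibrils and the sarcoplasmic reticulum turns it back into ATP beside the enzymes that use it. Adenylate kinase runs a parallel exchange by making ATP and AMP from a pair of ADP molecules.

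RNA was sequenced in 4 libraries, 1 per group, each from a pool of 3 mouse hearts at 12 weeks of age. Hearts of the hypertrophic cardiomyopathy (HCM) model, cMyBP-CΔC10mut mice with a transgene of the MYBPC3 variant of 25 bp, gave the dC10mut library, and those of nontransgenic mice the NTG library; both carry the strain label C57BL/6. Hearts of the dilated cardiomyopathy (DCM) model, cMyBP-C(t/t) mice, gave the tt library, and those of control mice the control library; both carry the strain label FvB/N. The promoter that drives the transgene is not given in the sources used here. Whole hearts were homogenised, so fewer cells of a type and less RNA per cell cannot be told apart in any value below. Because each group is 1 library, differences within a pair have no replicate check, and every interval given is a 95% interval for counting error alone.

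The libraries were shallow for these genes. The totals ranged from 170543 to 187365 counts, and the 9 genes together held 1732 counts in dC10mut, 1196 in NTG, 1326 in tt and 1694 in control. Counts were scaled to a common library total (CPM) with TMM factors, which set the scale by the bulk of the genes, and a count of 0 allows a level of up to 3 counts, which is 15.6 to 18.7 scaled CPM. Of 9 cardiomyocyte markers, Myl2, Actc1, Tnni3 and Ryr2 were well counted, while Tnnt2 and Myl3 were at 0 in all 4 libraries, Myh6 had at most 1 count, Pln at most 2 and Atp2a2 at most 3. Of 9 skeletal muscle markers 3 had any count, with sums of 6, 11, 3 and 8 in dC10mut, NTG, tt and control. Counts of Tsix, transcribed opposite Xist, were 147 in dC10mut and 0 in NTG, and 159 in tt and 0 in control. Xist itself held fewer, at 8, 0, 14 and 0 counts in dC10mut, NTG, tt and control, and the Y-linked Ddx3y held 0, 1, 0 and 14. In both pairs the sex of the pools and their genotype thus cannot be told apart. Of the listed Y-linked genes only Ddx3y was counted in NTG, with 1 count.

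Only 5 of the 9 genes were counted on a single transcript, and these are the ones with more than a stray count: Slc25a4, Ckmt2, Ckm, Slc25a3 and Ckb. The other 4, Mb, Vdac1, Ak1 and Slc6a8, are spread over 12 transcripts and held 0 or 1 count in every library. Their transcripts overlap each other nearly throughout where the annotation places them: the shared part was 85.8% to 100% of the exon bases for Mb, 94.4% to 100% for Ak1 and 83.6% to 100% for Slc6a8. The same split ran through the whole table. Of 16977 genes with 1 transcript 9.55% had a mean of at least 10 counts, and of 7929 genes with several transcripts 2.17% did. How the counting treated reads shared between transcripts is not given in the sources used here, so the values of these 4 genes say nothing firm about their expression.

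Mb (chromosome 15, 77015487 to 77050670, minus strand, GRCm38 as for all positions here) held 0 counts in dC10mut, 1 in NTG, 1 in tt and 1 in control. Vdac1 (chromosome 11, 52360860 to 52389397), the outer membrane porin, held 1, 0, 1 and 0 counts in the same order. Ak1 (chromosome 2, 32621758 to 32635058), the cytosolic adenylate kinase of muscle, and Slc6a8 (chromosome X, 73673150 to 73682502), which brings creatine into the cell, held 0 counts in all 4 libraries. Each of these counts lay at or under the limit of 3 counts, and no fold is given for these genes.

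Ckm, the cytosolic muscle-type creatine kinase (chromosome 7, 19411025 to 19422841, plus strand, 8 exons, 2742 bp of transcript), shares part of its exons with a noncoding transcript on the other strand, A930016O22Rik (chromosome 7, 19418812 to 19421417, minus strand). The shared 451 bases lie in exons 6, 7 and 8 of Ckm and make up 16.4% of its transcript and 37.1% of the 1214 bases of A930016O22Rik. Exon 7 of Ckm is fully coding, and its shared stretch is printed because reads from this stretch can be given to one or the other row only by their strand. Both exons are written 5′ to 3′ on their own strand from the GENCODE transcripts of GRCm38, and the capitals mark the 126 bases that the exons share as reverse complements.
Ckm exon 7, chr7:19420107-19420296, plus strand: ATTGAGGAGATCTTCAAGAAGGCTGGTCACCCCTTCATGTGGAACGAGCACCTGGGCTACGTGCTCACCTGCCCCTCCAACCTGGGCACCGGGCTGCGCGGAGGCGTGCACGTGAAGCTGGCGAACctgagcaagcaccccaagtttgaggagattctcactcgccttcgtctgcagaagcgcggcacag
A930016O22Rik exon 3, chr7:19420058-19420232, minus strand: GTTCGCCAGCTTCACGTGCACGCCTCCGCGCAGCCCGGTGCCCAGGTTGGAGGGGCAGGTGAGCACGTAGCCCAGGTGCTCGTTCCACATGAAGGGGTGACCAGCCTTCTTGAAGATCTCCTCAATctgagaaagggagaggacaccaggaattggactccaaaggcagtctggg

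Ckm held 432 counts in dC10mut, 342 in NTG, 290 in tt and 309 in control. A930016O22Rik held 7139, 7272, 5781 and 6674 counts in the same order, all on 1 of its 2 transcripts, which was the second most counted transcript of the files. Within each library Ckm thus had 6.05 counts per 100 of its opposite-strand partner in dC10mut (5.48 to 6.67), 4.70 in NTG (4.21 to 5.24), 5.02 in tt (4.44 to 5.65) and 4.63 in control (4.12 to 5.19). The ratio was 1.29-fold higher in dC10mut than in NTG (log2 ratio 0.36, 0.15 to 0.57) and did not differ beyond counting error between tt and control (0.12, -0.12 to 0.35).

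Ckm was not alone in holding far fewer counts than an opposite-strand neighbour. Pdha1, a subunit of pyruvate dehydrogenase added after its values were seen, held 188, 121, 228 and 150 counts in dC10mut, NTG, tt and control, against 11101, 11983, 14012 and 12362 for Map3k15 on the other strand. In a list of heart gene pairs drawn from earlier results of these data, the gap varied. In control Cmya5 held 76 counts against 70 for A630019I02Rik, and Oxct1 184 against 131 for BC037032. Both held fewer than their neighbours in the other libraries. Myh6, Myh7, Abcc9, Aldh6a1, Kcnk3 and Dsg2 held fewer in every library. Of these, Abcc9 held 0 counts and Aldh6a1 at most 1 in each library. Myh6, counted on 2 transcripts, also held at most 1 and shares 0 exon bases with Mhrt. The gaps of Abcc9, Aldh6a1 and Myh6 thus rest on counts under the limit of 3. Transcripts with an exon opposite another gene's exon were 20.9% of those placed and held 67.5% of the counts in dC10mut, 70.4% in NTG, 66.9% in tt and 68.1% in control. Among the 20 most counted, 13 of the 18 placed had one. The library kit keeps strand, and the sources used here give no strand setting for the counting. Which strand the reads of A930016O22Rik and Ckm came from was not tested, and the values of Ckm below carry this limit. The missing strand setting also bears on the counts of every other member.

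**Figure D1:**
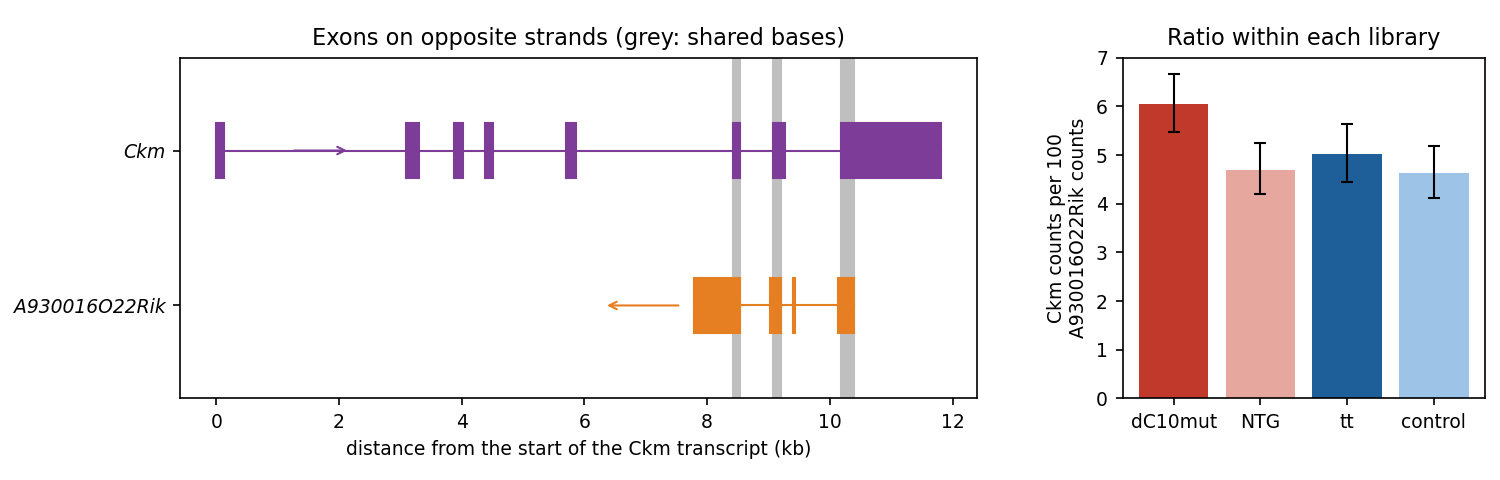
Left, exons of Ckm and A930016O22Rik (boxes) against distance from the start of the Ckm transcript in kb, with arrows for the direction of transcription and grey bands for the 3 stretches that exons of both share. Right, Ckm counts per 100 A930016O22Rik counts in each library with 95% counting intervals; the bar of dC10mut stands at 6.05 and the other 3 between 4.63 and 5.02.

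The map of both transcripts shows that the shared stretches lie in exons 6 and 7 and at the start of the last exon, and that most of the length of Ckm faces no exon of the partner. The other members counted on a single transcript had little or no exon overlap on the other strand. Ckmt2 (chromosome 13, 91853387 to 91876885, minus strand, 10 exons) shares 84 bases, 5.7% of its transcript, with the opposite-strand transcript 1700119I11Rik, for which no count was analysed here. Slc25a4 (chromosome 8, 46206797 to 46211284, minus strand, 4 exons), Slc25a3 (chromosome 10, 91116574 to 91124059, minus strand, 8 exons) and Ckb (chromosome 12, 111669361 to 111672338, minus strand, 8 exons) had no exon overlap with another gene.

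Slc25a4, the heart and muscle isoform of the ADP/ATP carrier, had the highest level of the 5 genes counted on a single transcript. Its counts were 726 in dC10mut, 444 in NTG, 585 in tt and 781 in control, or 3877, 2768, 3038 and 4294 scaled CPM. Control and dC10mut stood above tt and NTG, and the counting intervals of the higher and the lower 2 libraries did not overlap. Slc25a3, the phosphate carrier of the inner membrane, held 153 counts in dC10mut, 112 in NTG, 122 in tt and 145 in control, or 817, 698, 633 and 797 scaled CPM. From high to low its libraries stood in the order dC10mut, control, NTG and tt, and the counting intervals of all 4 overlapped.

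Ckmt2, the sarcomeric mitochondrial creatine kinase, held 410 counts in dC10mut, 294 in NTG, 325 in tt and 453 in control, or 2189, 1833, 1688 and 2490 scaled CPM. As for the carrier Slc25a4, control was highest and dC10mut next. Ckm stood at 2307 scaled CPM in dC10mut, 2132 in NTG, 1506 in tt and 1699 in control. In contrast to Slc25a4 and Ckmt2, both libraries labelled C57BL/6 were above both labelled FvB/N, and with TMM scaling their counting intervals did not overlap. Scaled by library totals, the log2 ratio of Ckm in control over NTG was -0.20 (-0.42 to 0.03), which spanned equality. Ckb, the brain-type isoform that the heart also makes, held 10 counts in dC10mut, 3 in NTG, 2 in tt and 5 in control, too few to order the libraries.

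Per kilobase of transcript, the order of the levels was the same in every library: Slc25a4, Ckmt2, Ckm, Slc25a3 and Ckb. Slc25a4 stood at 2014 scaled CPM per kb in dC10mut, 1438 in NTG, 1578 in tt and 2231 in control. Ckmt2 followed at 1473, 1234, 1136 and 1676, Ckm at 841, 778, 549 and 620, and Slc25a3 at 507, 433, 393 and 495. The counting intervals of neighbours in this order overlapped for Slc25a4 and Ckmt2 in NTG and for Ckm and Slc25a3 in control. Ckb was far below, between 7.06 and 36.3 scaled CPM per kb.

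**Figure D2:**
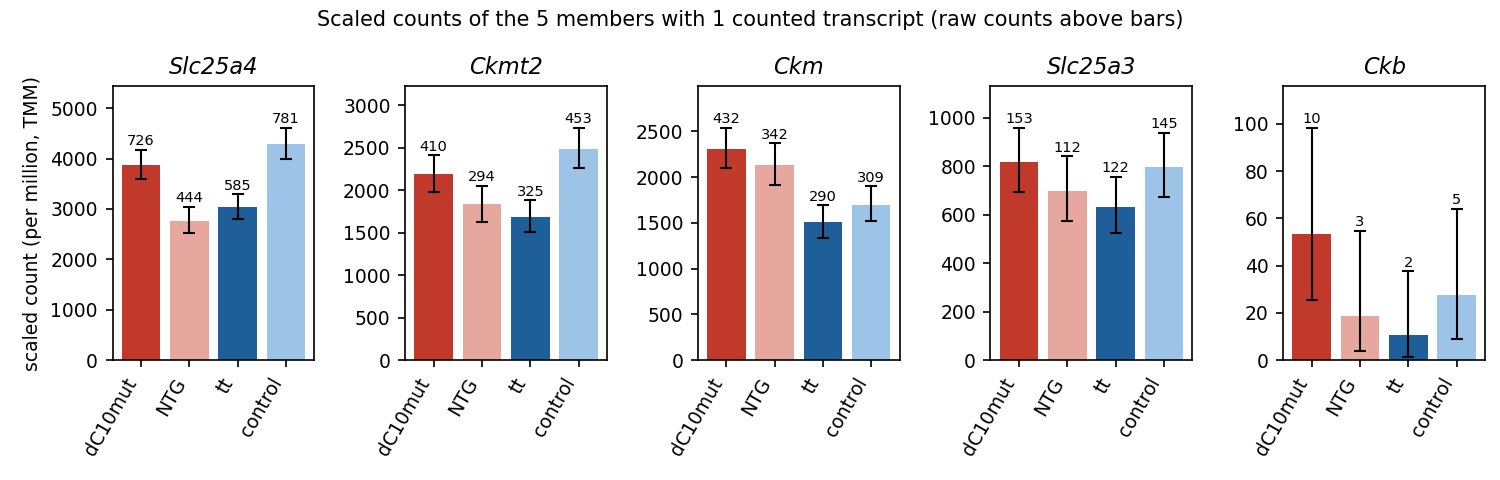
Scaled CPM (TMM) of the 5 genes counted on 1 transcript in dC10mut, NTG, tt and control, each panel with its own axis from 0; bars are single libraries, error bars are exact 95% Poisson intervals for counting error and the raw count stands above each bar. Slc25a4 and Ckmt2 are highest in control, at 781 and 453 counts, and Ckm in dC10mut, at 432.

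The bars of the scaled counts show the same picture by gene: with TMM scaling dC10mut lies above NTG and tt lies below control in all 5 panels, with single-library intervals that overlap within both pairs for Ckm, Slc25a3 and Ckb and within the HCM pair for Ckmt2. The heights of dC10mut and control are close for Slc25a3, while for Ckm dC10mut is close to NTG.

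The HCM pair asks how these genes stand in hearts with the variant transgene against nontransgenic hearts. Slc25a4 was 1.40-fold higher in dC10mut than in NTG (log2 ratio 0.49, interval 0.31 to 0.66) and Ckmt2 1.19-fold higher (0.26, 0.04 to 0.48). The intervals of Slc25a3 (0.23, -0.13 to 0.59), Ckm (0.11, -0.09 to 0.32) and Ckb (1.38, -0.44 to 4.01) spanned equality. By the rule of size, which asks for a 2-fold ratio and an interval that excludes equality, 0 members differed, where 4.33% of the 8033 genes measured in the pair did. With 50 counts in every library as the minimum, 4 members remained, and their median log2 ratio was 0.24, with 4 of 4 positive under TMM scaling and Ckmt2, Slc25a3 and Ckm negative when scaled by the cardiomyocyte markers described next. Over all 400 such genes the median was -0.16, with 38.0% positive, and over the 111 such genes that lack an opposite-strand exon it was 0.08, with 62.2% positive. A930016O22Rik went the other way from Ckm, with a log2 ratio of -0.25 (-0.30 to -0.20), and the sum of Ckm and its partner had -0.23 (-0.28 to -0.19). Ckm alone thus did not differ beyond counting error, while the 2 opposite rows together were lower in dC10mut.

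The summed cardiomyocyte markers were also higher in dC10mut than in NTG. The sum was 6148 counts in dC10mut and 4228 in NTG, a log2 ratio of 0.32 (0.26 to 0.37), led by Myl2, the ventricular regulatory light chain, at 3520 and 2405. Of the 4 well counted markers 3 had positive ratios, and Ryr2, the calcium release channel, held 144 and 129 counts (-0.06, -0.42 to 0.29). Per 100 counts of these markers, Slc25a4 had 11.8 counts in dC10mut and 10.5 in NTG (log2 ratio 0.17, -0.01 to 0.35), Ckmt2 had 6.67 and 6.95 (-0.06, -0.28 to 0.16), and Ckm 7.03 and 8.09 (-0.20, -0.42 to 0.01). The 4 members summed to 28.0 per 100 marker counts in dC10mut and 28.2 in NTG (-0.01, -0.13 to 0.11). Relative to the cardiomyocyte markers, then, no difference of these genes in the HCM pair exceeded counting error. Among other cell types, macrophage markers summed to 35 counts in dC10mut and 10 in NTG, smooth muscle and pericyte markers to 172 and 99, fibroblast markers to 60 and 41 and endothelial markers to 226 and 216. Single genes led these sums, with Lyz2 at 28 and 6, Rgs5 at 120 and 65, Dpt at 38 and 14 and Fabp4 at 184 and 154. Other listed markers had negative ratios, among them Cdh5 at 24 and 39 (-0.91, -1.72 to -0.15), Kdr at 18 and 23 and Tagln at 26 and 28. The part of these cell types in the ratios of the members was not tested.

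The DCM pair asks the same of cMyBP-C(t/t) hearts against their controls. Ckmt2 stood at 0.678 times the control level in tt (log2 ratio -0.56, -0.77 to -0.35) and Slc25a4 at 0.708 times (-0.50, -0.66 to -0.34). The intervals of Slc25a3 (-0.33, -0.69 to 0.03), Ckm (-0.17, -0.41 to 0.06) and Ckb (-1.21, -4.80 to 1.21) spanned equality. No member passed the size rule, where 4.28% of the 8248 genes measured did. Ak1 and Slc6a8, at 0 counts, were not measured in either model pair. The 4 members with at least 50 counts in every library had a median of -0.41 and 0 of 4 were positive, against -0.11 and 40.8% over all 400 such genes and -0.01 and 48.6% over the 111 without an opposite-strand exon. A930016O22Rik had a log2 ratio of -0.29 (-0.34 to -0.24), in the same direction as Ckm.

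In the DCM pair Slc25a4 and Ckmt2 stayed lower in tt when set against the cardiomyocyte markers, and Ckm and Slc25a3 did not differ beyond counting error. The markers summed to 4553 counts in tt and 4731 in control (log2 ratio -0.14, -0.20 to -0.08), although Ryr2, at 201 and 141 counts, had a ratio of 0.43 (0.11 to 0.75). Slc25a4 had 12.8 counts per 100 marker counts in tt and 16.5 in control (-0.36, -0.53 to -0.20) and Ckmt2 7.14 and 9.58 (-0.42, -0.64 to -0.21), while Ckm had 6.37 and 6.53 (-0.04, -0.27 to 0.20) and Slc25a3 2.68 and 3.07 (-0.19, -0.55 to 0.16). The 4 members together had 29.0 in tt and 35.7 in control (-0.30, -0.42 to -0.18). Endothelial markers summed to 128 counts in tt and 255 in control (log2 ratio -1.07, -1.39 to -0.76), macrophage markers to 9 and 33, smooth muscle and pericyte markers to 129 and 157, and fibroblast markers to 39 and 55. Fabp4 at 102 and 203, Lyz2 at 5 and 28 and Rgs5 at 86 and 95 led the first 3 of these sums. Of 4 atrial markers Nppa, which has an opposite-strand exon, was the 1 with a count, at 22 in dC10mut, 9 in NTG, 16 in tt and 60 in control. Its log2 ratio was -1.96 in the DCM pair (-2.88 to -1.17) and 2.50 between control and NTG (1.54 to 3.75), and like Slc25a4 and Ckmt2 it was highest in control. The part of these markers in the ratios of the members was not tested, and markers of red cells, nerve and glia and adipocytes were at 0 in all 4 libraries.

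**Figure D3:**
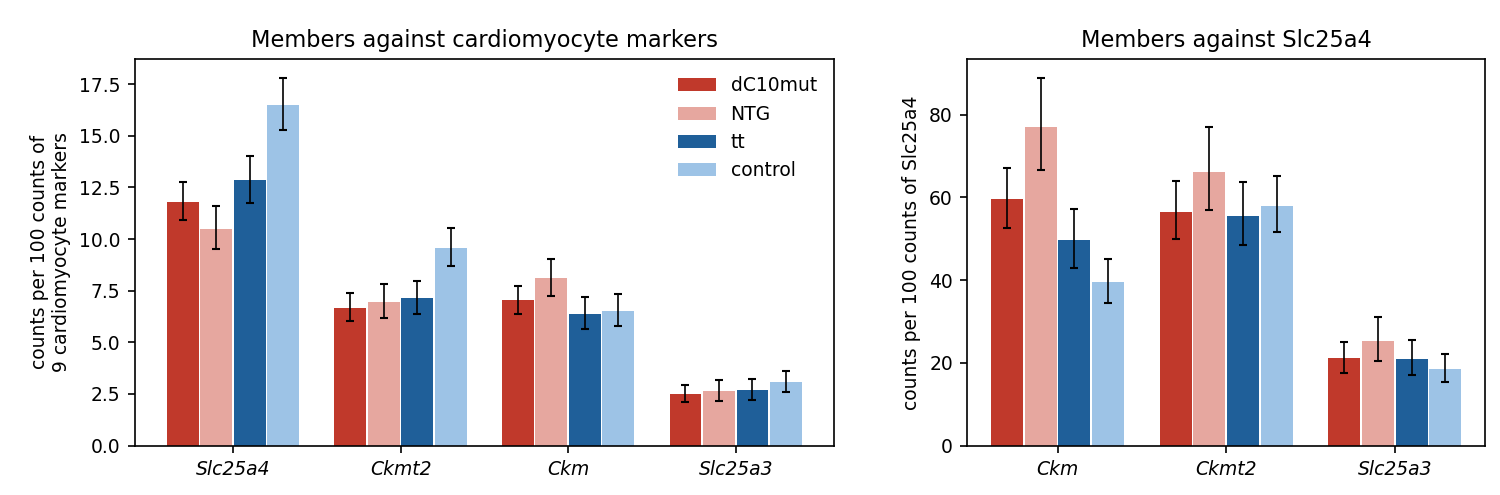
Left, counts of each member per 100 counts of the 9 cardiomyocyte markers summed; right, counts of Ckm, Ckmt2 and Slc25a3 per 100 counts of Slc25a4, in dC10mut, NTG, tt and control, with 95% counting intervals. In the left panel control stands apart for Slc25a4 at 16.5 and for Ckmt2 at 9.58, and in the right panel Ckm runs from 39.6 in control to 77.0 in NTG.

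Ratios within a library do not depend on how libraries are scaled. Ckmt2 had 56.5 counts per 100 counts of Slc25a4 in dC10mut, 66.2 in NTG, 55.6 in tt and 58.0 in control, and the intervals of the log2 ratio spanned equality in the HCM pair, the DCM pair and between control and NTG. Ckm had 59.5 counts per 100 of Slc25a4 in dC10mut against 77.0 in NTG (log2 ratio -0.37, -0.64 to -0.11), and 49.6 in tt against 39.6 in control (0.33, 0.05 to 0.60). Ckm was thus lower relative to Slc25a4 in dC10mut than in NTG and higher in tt than in control. Slc25a3 had 21.1 counts per 100 of Slc25a4 in dC10mut, 25.2 in NTG, 20.9 in tt and 18.6 in control, with intervals that spanned equality in both model pairs and a log2 ratio of -0.44 (-0.84 to -0.05) between control and NTG. The ratio of the cytosolic to the mitochondrial creatine kinase, Ckm per 100 counts of Ckmt2, was 105 in dC10mut and 116 in NTG (-0.14, -0.44 to 0.15), and 89.2 in tt and 68.2 in control (0.39, 0.08 to 0.70).

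Between the control libraries of the pairs the members differed by sizes like those within the pairs. The control level of Slc25a4 was 1.55-fold that of NTG (log2 ratio 0.63, 0.46 to 0.80) and that of Ckmt2 1.36-fold (0.44, 0.23 to 0.66), while Ckm was at 0.797 times the NTG level (-0.33, -0.55 to -0.10). The ratio of Ckm spanned equality when scaled by library totals (-0.20, -0.42 to 0.03). Slc25a3 (0.19, -0.17 to 0.56) and Ckb (0.49, -1.81 to 3.24) spanned equality. No member passed the size rule, where 3.09% of the 8152 genes measured did. Vdac1, Ak1 and Slc6a8, at 0 counts in both libraries, were not measured. The median of the 4 members was 0.32, with 3 of 4 positive, against -0.14 over the 400 genes with at least 50 counts in every library. Ckm per count of Slc25a4 had a log2 ratio of -0.96 (-1.24 to -0.68) between control and NTG. These libraries differ in strain label and each also serves in a model pair, so the ratio of tt over control and that of control over NTG share the control library, and that of dC10mut over NTG shares NTG.

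**Figure D4:**
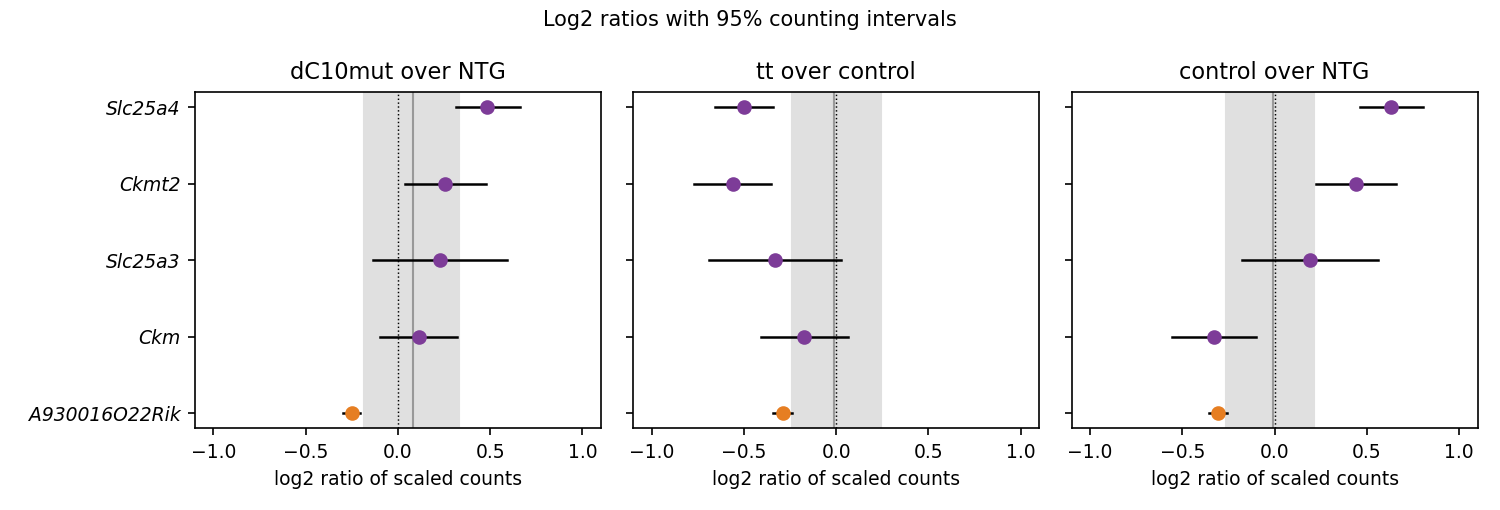
Log2 ratio of scaled counts (points) with 95% counting intervals (lines) for dC10mut over NTG, tt over control and control over NTG; orange marks A930016O22Rik, opposite Ckm. The grey band and line are the quartile range and median of the 111 genes with at least 50 counts in every library and no opposite-strand exon, from -0.19 to 0.33 in the HCM pair; Slc25a4 lies above the band at 0.49 in dC10mut over NTG and below it at -0.50 in tt over control.

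Beside the quartile range of well counted genes without an opposite-strand exon, which ran from -0.19 to 0.33 in the HCM pair, from -0.24 to 0.24 in the DCM pair and from -0.26 to 0.21 between control and NTG, Slc25a4 lay outside in all 3 comparisons. Ckmt2 lay inside it in the HCM pair and outside in the other 2. Ckm lay inside it in the HCM and DCM pairs and below it between control and NTG. Slc25a3 lay below it in the DCM pair and inside in the other 2. Ckm and Ckmt2 have an opposite-strand exon themselves and are not among these genes. Over all 400 well counted genes the range was -0.48 to 0.14 in the HCM pair, with Ckmt2 and Slc25a3 above it. In the DCM pair that range was -0.43 to 0.28, with Slc25a3 inside it. Between control and NTG it was -0.36 to 0.12, with Ckm inside it and Slc25a3 above it. The place of Slc25a3 thus depended on the genes compared in all 3 comparisons.

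A comparison of the pairs asks whether the models differ from their controls alike. The log2 ratio of Slc25a4 was 0.98 higher in the HCM pair than in the DCM pair (0.75 to 1.21), that of Ckmt2 0.82 higher (0.52 to 1.11) and that of Slc25a3 0.56 higher (0.06 to 1.05). For Ckm the difference was 0.29 (-0.02 to 0.60), for Ckb 2.59 (-0.18 to 5.37) and for A930016O22Rik 0.04 (-0.03 to 0.11). No member passed the 2-fold rule for this difference, where 5.8% of the 6937 genes measured did. Ak1 and Slc6a8 were not measured. All 4 members with at least 50 counts in every library had a positive ratio in the HCM pair and a negative one in the DCM pair under TMM scaling, though 3 of them were negative in the HCM pair with marker scaling. The TMM pattern was one that 18.5% of the 400 genes at that minimum had, and 35.1% of the 111 without an opposite-strand exon. The pairs share no library, and their difference also holds the difference in strain label and model.

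A difference shared by both models was the one comparison that could be tested, with 1 residual degree of freedom. With the pair as a block, edgeR's quasi-likelihood test with Benjamini-Hochberg adjustment was used, in which 0.177% of 7360 genes passed an adjusted p threshold of 0.05 and 0 of the 7 members tested did, with 0 members at an unadjusted p under 0.05. The DESeq2 Wald test also called 0 members. The edgeR log2 fold changes were -0.02 for Slc25a4, -0.17 for Ckmt2, -0.05 for Ckm, -0.07 for Slc25a3 and 0.31 for Ckb, each with an adjusted p of 0.998. Ak1 and Slc6a8, at 0 counts, did not enter the test.

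Other genes of the energy shuttle were mostly uncounted or did not pass the rule of size. Of 56 listed partners 55 were in the files, 33 had a count and 14 had a mean of at least 10 counts. In the HCM pair 1 of 30 measured was at least 2-fold higher and 0 lower, where 4.33% of all 8033 genes measured passed in either direction. The median was 0.11 over these 30, against -0.11 over all genes measured, and 0.42 over the 14, of which 11 were positive. In the DCM pair 0 of 32 were higher and 0 lower, where 4.28% of 8248 genes passed. The medians were -0.06 and -0.07, with 5 of 14 positive, and the median over all genes measured was -0.05. Between control and NTG, where 3.09% of 8152 genes passed, 1 of 31 was higher and 0 lower.

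That gene was Slc25a5, the ADP/ATP carrier isoform of dividing and non-muscle cells and a close paralog of Slc25a4, so its reads may be hard to tell from those of similar copies. It held 28 counts in dC10mut, 5 in NTG, 19 in tt and 18 in control. NTG stood apart from the other 3 libraries. The log2 ratio was 2.16 in the HCM pair (0.87 to 3.99), -0.00 in the DCM pair (-1.01 to 1.01) and 1.58 between control and NTG (0.18 to 3.45).

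ATP synthase, which makes the ATP that Slc25a4 exports, had 8 subunits or regulators with a mean of at least 10 counts. With TMM scaling all 8 had positive log2 ratios in the HCM pair, 3 of them with an interval above equality, and 2 of 8 were positive in the DCM pair; scaled by the cardiomyocyte markers 5 and 4 of 8 were positive. Of the 111 genes with at least 50 counts in every library and no opposite-strand exon, 62.2% were positive with TMM in the HCM pair, and for the DCM pair the share was 48.6%. In either pair 0 of 11 measured passed 2-fold. The catalytic beta subunit gene Atp5b held 715 counts in dC10mut, 575 in NTG, 715 in tt and 629 in control (log2 ratios 0.09, -0.07 to 0.25, in the HCM pair and 0.10, -0.05 to 0.26, in the DCM pair). The alpha subunit gene Atp5a1, which has an opposite-strand exon, held 449, 352, 593 and 389 counts, and its ratio in the DCM pair was 0.53 (0.34 to 0.71). Atp5j2, a subunit of the membrane part, held 127, 66, 88 and 87 counts, with 0.72 (0.28 to 1.17) in the HCM pair. It was not among the 3 highest of this group in total count and did not pass the size rule. Atp5o, of the peripheral stalk and also with an opposite-strand exon, held 176, 116, 124 and 151 counts, with 0.38 (0.03 to 0.73) in the HCM pair and -0.37 (-0.72 to -0.01) in the DCM pair. With TMM scaling 1 of the 8 had an interval above equality in the DCM pair and 2 had one below. In the DCM pair Atp5a1 was thus higher in tt than in control, while Slc25a4 and Ckmt2 were lower.

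Proteins that dock at or pair with the porin gave lower counts. Vdac2, the sister porin, which has an opposite-strand exon, held 46 counts in dC10mut, 24 in NTG, 37 in tt and 33 in control (0.70, -0.03 to 1.49, in the HCM pair). Hk2, the hexokinase that binds mitochondria in muscle, held 27, 32, 50 and 24 counts, and its ratio in the DCM pair was 0.96 (0.25 to 1.74), just under the 2-fold rule. Ppif, cyclophilin D of the matrix, which also has an opposite-strand exon, held 32, 15, 19 and 21 counts. Nme1, a nucleoside diphosphate kinase, held 23, 20, 26 and 20 counts, with intervals that spanned equality in both pairs. Prkag1, a regulatory subunit of the AMP-activated kinase with an opposite-strand exon, held 12, 13, 9 and 14 counts. Creatine synthesis genes were at or near 0, with 1 count of Gatm in control and 0 of Gamt in all 4 libraries.

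Regulators known for these genes in muscle were thinly counted: 9 of 18 had a count and 3 a mean of at least 10. Esrra, an orphan nuclear receptor of mitochondrial genes with an opposite-strand exon, held 27 counts in dC10mut, 12 in NTG, 20 in tt and 24 in control (0.92, -0.08 to 2.06, in the HCM pair). Perm1, a muscle regulator induced by such receptors, held 55, 46, 55 and 60 counts. Epas1, a hypoxia-inducible factor, held 32, 35, 31 and 41 counts. Srf, the serum response factor, was the 1 of 7 measured past 2-fold in the DCM pair, on 14 counts in tt and 2 in control (2.46, 0.60 to 5.91), and none of 9 passed in the HCM pair. Over all genes measured 4.28% passed in the DCM pair and 4.33% in the HCM pair. Ppargc1a and Nrf1 were at 0 in all libraries and are counted on several transcripts.

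The genes whose pattern over the 4 libraries lay closest to each member were ranked by the root mean square distance between centred log2 scaled counts, among 399 other genes with at least 50 counts in every library. For Slc25a4 they were Tnnc1, cardiac troponin C, at a distance of 0.07 and Tpi1, of glycolysis, at 0.09, and Ckmt2 ranked 4. For Ckmt2 they were Fabp3, the heart fatty acid binding protein, at 0.07 and Gfm2, a mitochondrial ribosome recycling factor, at 0.07, with Slc25a4 at rank 6 and Slc25a3 at rank 7. For Slc25a3 they were Tnni3, cardiac troponin I, at 0.05 and Gfm2 at 0.05. For Ckm they were Tomm6os at 0.04 and Spout1 at 0.05, and its nearest member, Slc25a3, stood at rank 72 with a distance of 0.20. Of these neighbours Tpi1, Fabp3, Gfm2, Tomm6os and Spout1 have an opposite-strand exon, and Tnnc1 and Tnni3 have none. This likeness rests on 4 libraries and describes them only.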

How the data were processed

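Whole-heart RNA was extracted, poly(A) RNA was captured and strand-keeping libraries were made, per the labels' protocols. STAR, HTSeq and the mm10 build are named in the submitters' processing notes. The sources used here give no versions, strand setting or counting mode. The authors deposited raw read counts for each RefSeq transcript, which are whole numbers without normalization. Of 41449 transcripts, 41351 matched a symbol and 98 did not, and counts were summed per symbol. Positions and exon overlaps came from GENCODE M21 on GRCm38, which placed 35347 transcripts.

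Library totals were 187365 in dC10mut, 170543 in NTG, 186420 in tt and 176633 in control, so 1 count was 5.34 to 5.86 CPM before TMM scaling. The TMM factors were 0.999, 0.940, 1.03 and 1.03 in the same order. For log2 ratios 0.5 was added to each count, scaled to library size, with exact Clopper-Pearson conditional binomial 95% intervals. A gene passed at 2-fold or more with an interval that excluded equality and at least 1 CPM in a library of the pair. The difference between pairs used a normal approximation of the counting interval. The common difference used edgeR 4.0.16 and DESeq2 1.42.0 in R 4.3.3, in genes at 1 CPM or more in 2 libraries. Python 3.11.15 with scipy 1.17.1 gave the ratios. PCR copies are not independent molecules, so intervals and floors hold counting error and nothing else. The ratio rule and the fit were run on simulated data as a check of the code. Its planted changes were larger than those of the well counted members, and it does not bear on the spread between pools of hearts.

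The members, gene lists, tests and alternatives were chosen with earlier results of these data known. Named genes were all members, partners and regulators past the size rule or, with up to 3 per subgroup, highest in total count, and the 2 genes most like each well counted member. Atp5j2, Ppargc1a and Nrf1 were named outside this rule. Tnni3, Myl2 and the other markers came from a fixed list, and Pdha1 was added after its values were seen.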

Additional observations from a re-analysis of the deposited data

Results flagged for a closer look

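Slc25a4 and Ckmt2 differed from their controls in opposite directions in the 2 models, each with an interval that excluded equality in both pairs under TMM scaling. For Slc25a4 the log2 ratio was 0.49 in dC10mut over NTG and -0.50 in tt over control, a difference of 0.98. For Ckmt2 it was 0.26 and -0.56, a difference of 0.82, but scaling by cardiomyocyte markers gave 0.17 for Slc25a4 and -0.06 for Ckmt2 in dC10mut over NTG, both with intervals that spanned equality. With TMM factors from genes without an opposite-strand exon, Ckmt2 had 0.14 (-0.08 to 0.36) in dC10mut over NTG, which also spanned equality. With 1 library per group the difference between the models was not tested over replicates. The control library held the highest scaled counts of both genes, and NTG the lowest of Slc25a4.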

How the results depend on the processing

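The common fit used the model pair as a block. Without that block edgeR called 1 gene of 7360 instead of 13. With the block kept, the DESeq2 Wald test called 0 genes, with 43 at an unadjusted p under 0.05, and edgeR with library totals in place of TMM called 9. In each of these fits 0 members were called. The count of members past the size rule was 0 in every comparison under the alternatives run, with 2 exceptions. At 1.5-fold 1 member, Slc25a4, passed between control and NTG, where 4.5% of 8152 genes did. With library totals 1 member, Slc25a4, passed for the difference between the pairs, where 5.71% of 6937 genes did. In the DCM pair, over 9 alternatives, Slc25a4 ran from -0.52 to -0.36 and Ckmt2 from -0.58 to -0.42, with intervals below equality in all 9. Of these, the fold threshold, the minimum count, the choice of row and the prior count could not move the intervals of these genes. Only the changes of scaling could, and the same holds for the alternatives counted below for the HCM pair. In the HCM pair, scaling by the cardiomyocyte markers, an alternative chosen after seeing the data, gave 0.17 for Slc25a4, -0.06 for Ckmt2 and -0.20 for Ckm, and it moved the median of the 400 well counted genes to -0.47, against -0.16 with TMM. The other 8 alternatives gave 0.37 to 0.58 for Slc25a4 in that pair, with intervals above equality in all 8, and 0.14 to 0.35 for Ckmt2, with 7 of 8. The exception for Ckmt2 was TMM factors from genes without an opposite-strand exon, at 0.14 (-0.08 to 0.36). Adding the A930016O22Rik counts to Ckm, also chosen after seeing the data, turned Ckm to -0.23 in the HCM pair. Over all genes the split of higher to lower calls depended on scaling: 145 to 203 in the HCM pair with TMM, 170 to 166 with library totals, and 108 to 249 with TMM factors from transcripts without an opposite-strand exon. In the DCM pair it was 223 to 130 with TMM and 281 to 92 with marker scaling, and between control and NTG 114 to 138 with TMM and 155 to 84 with library totals. Depth limits Ckb, at 2 to 10 counts, and the 4 members at 0 or 1 count.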
